A study of Mus musculus with 4 samples.

Results

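The 10 genes described here encode apelin (Apln) and its receptor (Aplnr), the vascular endothelial growth factors Vegfa and Pgf with their receptors Kdr and Flt1, the angiopoietins Angpt1 and Angpt2 with their receptor Tek, and adrenomedullin (Adm). They are 10 of the 23238 distinct gene symbols listed for the mouse heart, and each stands on a single row of the data. The set was chosen by its symbols with the measured log2 values across the 4 heart libraries already known, so the values below describe these genes and carry no test. The study asked how high intensity aerobic exercise and a tumor change gene expression in mouse tissues, the heart among them. It used male CDF1 mice, labelled with an age of postnatal day 28, which either stayed sedentary, E(−), or ran on a motorized treadmill every other day, E(+). Tumor-bearing mice, T(+), had received CT26 cells, a murine colorectal carcinoma line, through the tail vein, and T(−) mice were healthy. The heart was profiled with 1 library for each of the 4 groups: sedentary healthy E(−)T(−), exercised healthy E(+)T(−), sedentary tumor-bearing E(−)T(+) and exercised tumor-bearing E(+)T(+). Below, the sedentary tumor contrast is E(−)T(+) minus E(−)T(−), and the exercised tumor contrast is E(+)T(+) minus E(+)T(−). The healthy exercise contrast is E(+)T(−) minus E(−)T(−), and the tumor-bearing exercise contrast is E(+)T(+) minus E(−)T(+). The study describes the muscle samples as coming from a representative mouse of each group and the heart analysis as similar, without giving the number of mice behind a heart library. There was no replicate, so no difference between libraries has a replicate check.

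VEGF-A is the main growth signal of blood vessels. It acts through Kdr on endothelial cells, while Flt1 binds VEGF-A and placental growth factor tightly and signals weakly, so that it also acts as a trap. Angiopoietin 1 from mural cells activates Tek and keeps vessels quiet, and angiopoietin 2, which endothelial cells store and release, mostly opposes it. Apelin is made by endothelial tip cells, cardiomyocytes and adipocytes. Its receptor sits on endothelial cells and cardiomyocytes, where the pair supports contraction and vessel growth. Adrenomedullin is a vasodilator peptide that acts on Calcrl together with Ramp2 or Ramp3.

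Levels are given as normalized read counts, taken back from the deposited log2(normalized read count + 1), each followed by the whole reads behind it, which could be recovered. Fold changes stay on the deposited scale, which understates changes of genes with few reads. The libraries held 6595540 to 11545746 reads. Globin genes took 37.3% of the reads in E(+)T(+) and 7.86% to 8.76% in the other libraries. The 10 cardiomyocyte markers examined had summed normalized read counts of 519782 to 608643, and none of the 10 was at 0 in any library. A log2 fold change is the first group minus the second, and its 95% interval comes from the recovered reads. These intervals cover counting error only, and leave out variation between mice and between library preparations. Reads without molecular identifiers are not independent molecules, so the intervals can be too narrow even for counting error. A gene was called changed when its fold change reached 2 and when either of the libraries compared had a normalized read count of 4 or more.

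For 7 of the 10 genes, RefSeq gave the sequence before a transcription start (build GRCm38.p6, the same assembly as mm10, which the submitters' processing notes name). The 250 bases before an annotated start, for Vegfa the outermost of its 2 starts, are shown for Apln, which had the largest range over the libraries, for Vegfa and Kdr, a ligand and a receptor with fewer reads in the sedentary tumor-bearing heart, and for Adm, which stayed within 2-fold in every comparison. Capitals mark the letters ACGTG or GCGTG on either strand, the core that hypoxia-inducible factors bind. On the other strand these cores read CACGT and CACGC.
Apln (chrX:48034854-48035103, minus strand): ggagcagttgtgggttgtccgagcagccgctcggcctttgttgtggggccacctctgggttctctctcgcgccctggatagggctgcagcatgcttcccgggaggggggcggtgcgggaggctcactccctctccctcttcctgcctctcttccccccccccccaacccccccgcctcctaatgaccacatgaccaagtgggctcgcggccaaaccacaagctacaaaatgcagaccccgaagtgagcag
Vegfa (chr17:46032378-46032627, minus strand): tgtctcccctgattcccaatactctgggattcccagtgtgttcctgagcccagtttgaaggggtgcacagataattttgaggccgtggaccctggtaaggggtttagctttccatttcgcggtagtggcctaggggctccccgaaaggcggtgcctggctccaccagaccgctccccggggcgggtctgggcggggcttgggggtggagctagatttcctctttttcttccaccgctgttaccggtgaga
Kdr (chr5:75978456-75978705, minus strand): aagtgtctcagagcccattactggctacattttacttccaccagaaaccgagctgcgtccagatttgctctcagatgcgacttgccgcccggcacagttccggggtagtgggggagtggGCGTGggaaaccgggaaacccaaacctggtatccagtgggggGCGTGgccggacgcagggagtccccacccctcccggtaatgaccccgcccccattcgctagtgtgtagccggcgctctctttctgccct
Adm (chr7:110627407-110627656, plus strand): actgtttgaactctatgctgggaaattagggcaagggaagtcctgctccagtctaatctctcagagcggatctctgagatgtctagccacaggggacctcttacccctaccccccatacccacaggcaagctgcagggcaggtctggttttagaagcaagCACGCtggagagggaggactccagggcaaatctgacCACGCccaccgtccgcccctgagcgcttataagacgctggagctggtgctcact
The Apln window and the Vegfa window shown held no core, and those of Kdr and Adm held 2 each, all GCGTG. The window of the other Vegfa start, inside the gene at chr17:46025164-46025413, held 1 GCGTG and 1 ACGTG. Of 9 windows for the 7 genes, 5 held a core, and so did 38.6% of all 32851 RefSeq windows of that length. None of the 9 held CACGTG, in which the cores of both strands overlap. A match is a description of the letters and not evidence of binding.

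Apelin and its receptor were low in both tumor-bearing hearts. Apln (chrX:48025146-48034853, minus strand, GENCODE M21 on GRCm38) had a normalized read count of 173 in the sedentary healthy, 132 in the exercised healthy, 5.07 in the sedentary tumor-bearing and 8.92 in the exercised tumor-bearing heart, from 151, 146, 6 and 8 reads. Aplnr (chr2:85136225-85139923, plus strand) had 81.9, 41.7, 2.44 and 6.72 in the same order, from 72, 46, 3 and 6 reads. For both genes the T(−) libraries stood far above the T(+) libraries, without overlap of their counting intervals. In sedentary mice the log2 fold change with a tumor was −4.84 for Apln (95% counting interval −6.50 to −3.88) and −4.59 for Aplnr (−7.27 to −3.36). In exercised mice the same contrast gave −3.75 for Apln (−5.15 to −2.90) and −2.47 for Aplnr (−4.18 to −1.43). Of the 14317 genes examined in the sedentary contrast, 9 had a lower fold change than Apln and 14 a lower one than Aplnr. Within the tumor-bearing pair the read numbers were too few to give a direction. The tumor-bearing exercise contrast was 0.71 for Apln (−0.99 to 2.53). Aplnr met the 2-fold rule there at 1.17 (−0.92 to 3.94), on 6 against 3 reads.

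The ligands of the VEGF receptors did not move together. Vegfa (chr17:46016993-46032369, minus strand) had a normalized read count of 963 in the sedentary and 1284 in the exercised healthy heart, and 352 in the sedentary and 964 in the exercised tumor-bearing heart, from 840, 1419, 399 and 881 reads. The sedentary tumor-bearing heart was the low library, and the exercised tumor-bearing heart was at the level of the healthy sedentary heart. The log2 fold change was −1.45 in the sedentary tumor contrast (−1.63 to −1.28) and 1.45 in the tumor-bearing exercise contrast (1.28 to 1.63). Both of these contrasts use the E(−)T(+) library, so they are not independent of each other. Without a tumor, exercise went with a change of 0.41 (0.29 to 0.54), under the 2-fold threshold. Pgf (chr12:85166635-85177790, minus strand), which encodes placental growth factor, had 73.5, 80.4, 106 and 212 in the same order, from 64, 89, 120 and 194 reads. It was highest in the exercised tumor-bearing heart, and its healthy libraries had overlapping counting intervals. The exercised tumor-bearing heart exceeded the exercised healthy heart by a log2 fold change of 1.39 (1.03 to 1.78). In the tumor-bearing exercise contrast its change of 0.995 (0.67 to 1.34) fell just short of the threshold.

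The VEGF receptors differed from each other. Kdr (chr5:75932827-75978458, minus strand), the receptor through which VEGF-A drives endothelial growth, had a normalized read count of 2631 and 1707 in the sedentary and exercised healthy hearts and 709 and 967 in their tumor-bearing counterparts, from 2296, 1887, 804 and 884 reads. Its 4 counting intervals were apart from one another, with the T(−) libraries on top. The tumor-bearing sedentary heart gave a log2 fold change of −1.89 (−2.01 to −1.78), and the exercised contrast gave −0.82 (−0.94 to −0.70). Flt1 (chr5:147561604-147726011, minus strand), the decoy-like receptor, had 1249, 1017, 978 and 884 in the same order, from 1090, 1125, 1109 and 808 reads. It was highest in the sedentary healthy heart but spanned only 0.50 on the log2 scale, the smallest range of the 10 genes. Its log2 fold change in the sedentary tumor contrast was −0.35 (−0.47 to −0.23).

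Among the angiopoietin genes the receptor changed most. Tek (chr4:94739289-94874976, plus strand) had a normalized read count of 289 and 208 in the sedentary and exercised healthy hearts and 108 and 188 in the sedentary and exercised tumor-bearing hearts, from 252, 230, 123 and 172 reads. The sedentary tumor-bearing library was the lowest, and the exercised libraries had overlapping counting intervals. Its log2 fold change was −1.41 in the sedentary tumor contrast (−1.74 to −1.10) and 0.79 in the tumor-bearing exercise contrast (0.45 to 1.14). Angpt1 (chr15:42424723-42676977, minus strand), the activating ligand, had 215, 173, 139 and 201 in the same order, from 188, 191, 158 and 184 reads. No comparison of Angpt1 reached 2-fold, and the sedentary tumor-bearing heart was again lowest. Angpt2 (chr8:18690263-18741562, minus strand), the ligand that mostly opposes it, had 56.1, 60.7, 28.1 and 43.8, from 49, 67, 32 and 40 reads. The change in the sedentary tumor contrast of −0.97 (−1.68 to −0.32) fell just short of the threshold, and passed it when reads were scaled to library totals (−1.12) or to reads outside globin genes (−1.13). Angpt2 lies within Mcph1 on the opposite strand, also at its last 1000 bases. Whether the counting used strand is not given in the sources used here, so reads of the pair cannot be told apart. The normalized read count of Mcph1 was 34.5, 28.9, 49.4 and 59.0 in that order. The antisense gene Gm17473 overlaps Angpt1, though not its last 1000 bases.

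Adm (chr7:110627661-110629820, plus strand) varied least between the sedentary libraries. The normalized read count was 124 in the sedentary and 179 in the exercised healthy heart, and 116 and 134 in the tumor-bearing hearts in that order, from 108, 198, 132 and 123 reads. The exercised healthy heart was the highest, with a healthy exercise contrast of 0.53 (0.19 to 0.88), and the other 3 libraries had overlapping counting intervals. The sedentary tumor contrast of −0.09 (−0.47 to 0.29) included 0. The antisense gene Gm28863 overlaps the last 1000 bases of Adm.

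**Figure D1:**
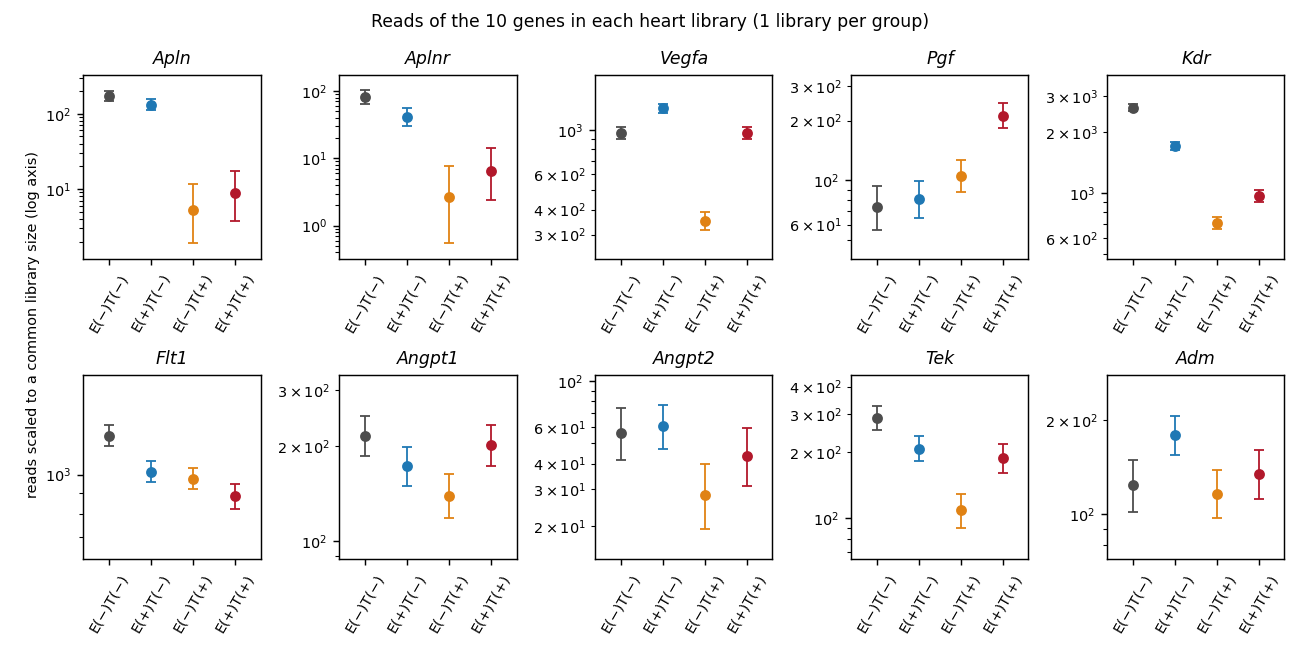
Reads of each of the 10 genes, scaled to a common library size (log axis, its range set for each gene), in the 4 heart libraries, with 1 point per library and bars for 95% counting intervals. Apln and Aplnr drop to 3 to 8 reads in the T(+) libraries, Vegfa is lowest in E(−)T(+), and Flt1 spans 0.50 on the log2 scale.

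The sedentary tumor contrast held the most calls. Apln, Aplnr, Vegfa, Kdr and Tek fell, 5 of the 10 genes, and none was called higher. Of the 14317 genes examined there, 13.1% were called lower and 14.6% higher. The median log2 fold change was −1.19 over the 10 genes and −0.01 over all genes examined, and 8 of the 10 had a counting interval below 0. In the exercised tumor contrast Apln and Aplnr fell and Pgf rose, beside 11.1% of 14289 genes called lower and 12.0% higher, and the median of the 10 was −0.41. The healthy exercise contrast gave no call among the 10 genes, beside 6.40% of 13937 genes called lower and 5.88% higher. The largest change in that contrast was Aplnr, at −0.96 (−1.55 to −0.43). In the tumor-bearing exercise contrast Vegfa and Aplnr were called higher and none lower, beside 9.39% of 14363 genes called higher and 10.0% lower. All 10 genes passed the count minimum in every comparison, Aplnr only through the other library where E(−)T(+), at 2.44, was compared. Since the genes were chosen with these values known, the counts are read as a description beside the background shares.

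**Figure D2:**
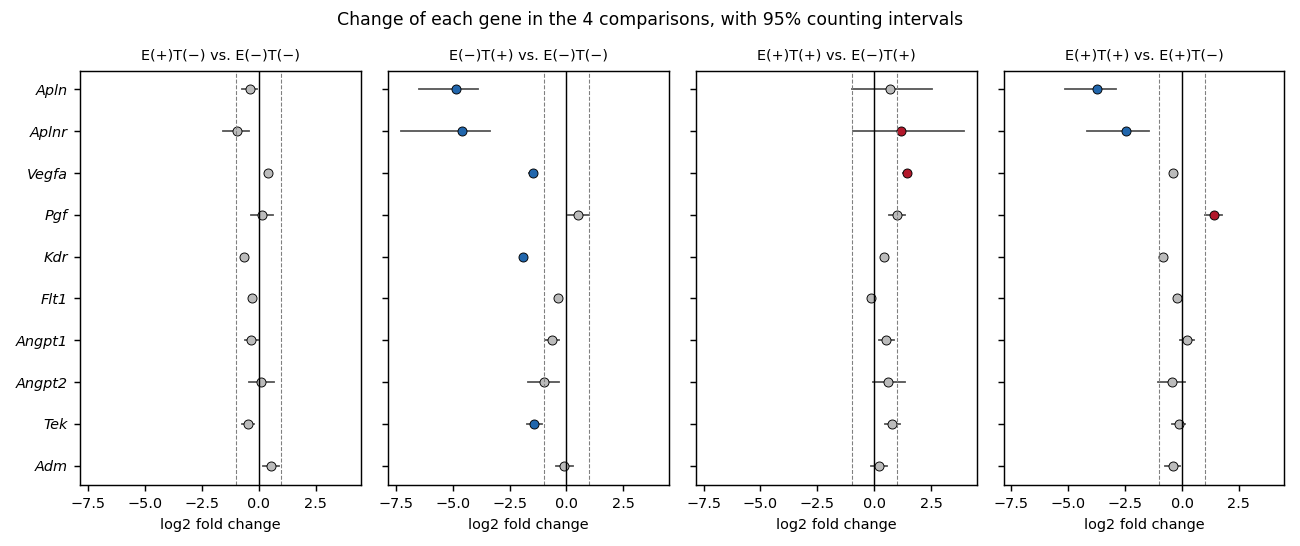
Log2 fold change (horizontal axis) of each of the 10 genes in the 4 comparisons, with lines for 95% counting intervals, dashed lines at 2-fold, blue points for genes called lower and red for genes called higher. In the sedentary tumor contrast, 5 genes are called lower, and the wide line of Aplnr in the tumor-bearing exercise contrast includes 0.

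The direction of the exercise contrast differed by tumor status for part of the set. With a tumor, 9 of the 10 genes were higher in the exercised heart, 5 of them with a counting interval above 0. The intervals of Angpt2 and Adm included 0, as did those of Apln and Aplnr. Flt1 was lower, at −0.15 (−0.28 to −0.01). The median was 0.67 over the 10 genes and −0.01 over all genes examined. Without a tumor 6 of the 10 were lower in the exercised heart. Kdr was at −0.62 without a tumor (−0.71 to −0.54) and at 0.45 with one (0.31 to 0.59). For Tek the values were −0.47 (−0.74 to −0.21) and 0.79 (0.45 to 1.14). For Angpt1 they were −0.32 (−0.62 to −0.02) and 0.53 (0.22 to 0.85). Apln and Aplnr also had opposite signs, but their intervals with a tumor included 0. Vegfa was higher with exercise in both settings. The 18 pan-endothelial markers turned in the same way as a group, with a median of −0.28 without a tumor (13 of 18 below 0) and 0.37 with one (12 of 17 examined above 0). Kdr stood above 10 of those 17 in the tumor-bearing exercise contrast, Angpt1 above 12 and Tek above 14, and without a tumor 3, 8 and 5 of the 18 lay below them. With 1 library per group, the difference between the contrasts could not be tested. The normalization bears on the contrast with a tumor: scaled to library totals, of which globin took 37.3% in E(+)T(+), the median of all genes in that contrast was −0.59, that of the pan-endothelial markers was −0.22, and Kdr, Angpt1 and Adm were at −0.14, −0.06 and −0.37. Under that scaling Vegfa, at 0.86, and Aplnr were no longer called higher in this contrast, nor was Pgf, at 0.67, in the exercised tumor contrast, where 6 genes were called lower, Vegfa among them at −1.13, beside 35.3% of all genes examined.

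**Figure D3:**
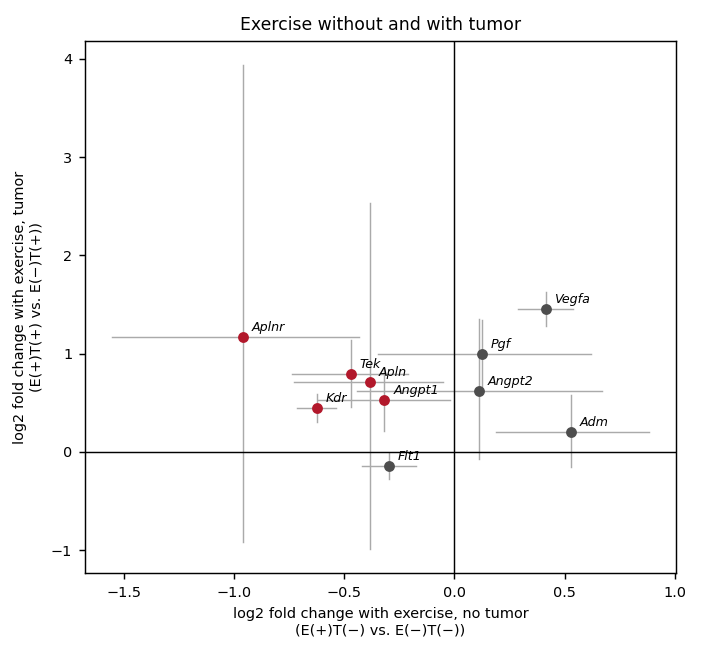
Log2 fold change with exercise in healthy mice (horizontal axis) against that in tumor-bearing mice (vertical axis) for the 10 genes, with lines for 95% counting intervals and red points for the 5 genes of opposite sign. Kdr, Tek and Angpt1 lie left of 0 and above 0 with intervals that exclude 0 on both axes.

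Other ligands and receptors of these pathways were read from lists of 14 ligands and 14 receptors, which include the 10 genes. Among the other receptors in the sedentary tumor contrast, 3 of 10 fell and 1 rose, beside 13.1% of all genes examined called lower and 14.6% higher. The VEGF co-receptor Nrp1 fell by 1.93 on the log2 scale (95% counting interval −2.02 to −1.84, 3970 against 1354 reads), and Nrp2 fell by 1.12. Plxnd1, the endothelial semaphorin receptor, fell by 1.27. Itgb3, an integrin subunit of vessels and platelets, rose by 1.85 (1.28 to 2.57, 26 against 126 reads). The same 3 receptors were also lower in the exercised tumor contrast, at −1.25 for Nrp1, −1.70 for Nrp2 and −1.69 for Plxnd1. Itgb3 was again higher there, at 1.57 (1.11 to 2.09). The shares over all genes examined in that contrast were 11.1% lower and 12.0% higher. Tie1, the partner of Tek, was at −0.58 in the sedentary tumor contrast, and the adrenomedullin receptor genes Calcrl and Ramp2 were at −0.45 and −0.05. The adrenomedullin co-receptor Ramp3 rose by 1.24 in the tumor-bearing exercise contrast, from 191 to 365 reads. It was named after its values were seen, as were Tie1, Calcrl, Ramp2, Calcb and Calca.

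Of the other ligands, the lymphatic growth factors were lowest in the exercised tumor-bearing heart. Figf, which encodes VEGF-D, had 39, 72, 81 and 18 reads in the order above, and fell by 1.80 in the tumor-bearing exercise contrast (−2.68 to −1.11). Vegfc had 29, 34, 22 and 7 reads in that order, and fell by 1.21 in the same contrast (−2.81 to −0.06). Vegfb, which binds Flt1, was at −0.54 in the sedentary tumor contrast and 0.32 in the tumor-bearing exercise contrast. Calcb, a calcitonin gene-related peptide, had 26, 15, 0 and 1 reads. Calca, the related gene on the ligand list, went the other way with 0, 0, 12 and 4 reads. It was called higher in the sedentary tumor contrast, at 3.45. Apela, which encodes the second ligand of the apelin receptor, had no read in any library, and neither did Angpt4 or Adm2.

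Genes known to rise in hypoxia went both ways in the sedentary tumor contrast, with 5 of 20 higher, 3 of 20 lower and a median of 0.05. The shares over all genes examined there were 14.6% higher and 13.1% lower. Bnip3, a mitophagy receptor, rose by 1.90 (949 against 4601 reads), and Ddit4, an mTOR inhibitor, rose by 2.11 (711 against 3997 reads). Ankrd37 fell by 4.14, from 66 to 4 reads (−6.34 to −3.00), and P4ha1, a collagen prolyl hydroxylase subunit, fell by 2.66 (−3.15 to −2.24). The other called members, named after their values were seen, were Slc2a1 at 1.31, Pfkfb3 at 1.49, Hif3a at 1.06 and Egln3 at −1.05. The value of Hif3a rests on few reads, 4 against 12. Of 7 genes of the oxygen sensors and hypoxia-inducible factors, none was called in that contrast, with Hif1a at 0.56 and Epas1 at −0.15, and Vhl fell by 1.29 in the tumor-bearing exercise contrast.

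Among 16 endothelial tip cell and Notch genes, 3 fell and 2 rose in the sedentary tumor contrast, with a median of −0.59. The shares over all genes examined there were 13.1% lower and 14.6% higher. The other called members, named after their values were seen, were Notch4 at −1.10, Cxcr4 at −1.05 and Plaur at 1.69. Dll4, the Notch ligand of tip cells, fell by 1.95 (−2.40 to −1.54) and had 186, 211, 62 and 31 reads in the same library order. Igfbp3 rose by 1.22 in that contrast and fell by 1.98 in the tumor-bearing exercise contrast. Pdgfb, which recruits pericytes, fell by 2.21 in the latter (−3.33 to −1.42), from 74 to 12 reads, and Esm1, a tip cell marker, fell by 2.08 (−3.26 to −1.25), from 62 to 11 reads. There the list had 3 members called lower and 1 higher, Hey1, at 1.25, named after its value was seen. Of all genes examined in that contrast, 10.0% were called lower and 9.39% higher. Of 14 regulators of vessel stability, 13 passed the count minimum in the sedentary tumor contrast and 2 fell. Ets1, an endothelial transcription factor, fell by 1.65 (−1.91 to −1.41), and Angptl4, a lipoprotein lipase inhibitor, fell by 4.93 (−6.81 to −3.91) and had 138, 32, 5 and 38 reads. Klf2, a flow-responsive factor, was at 0.22 there and fell by 1.08 in the tumor-bearing exercise contrast (−1.18 to −0.98).

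**Figure D4:**
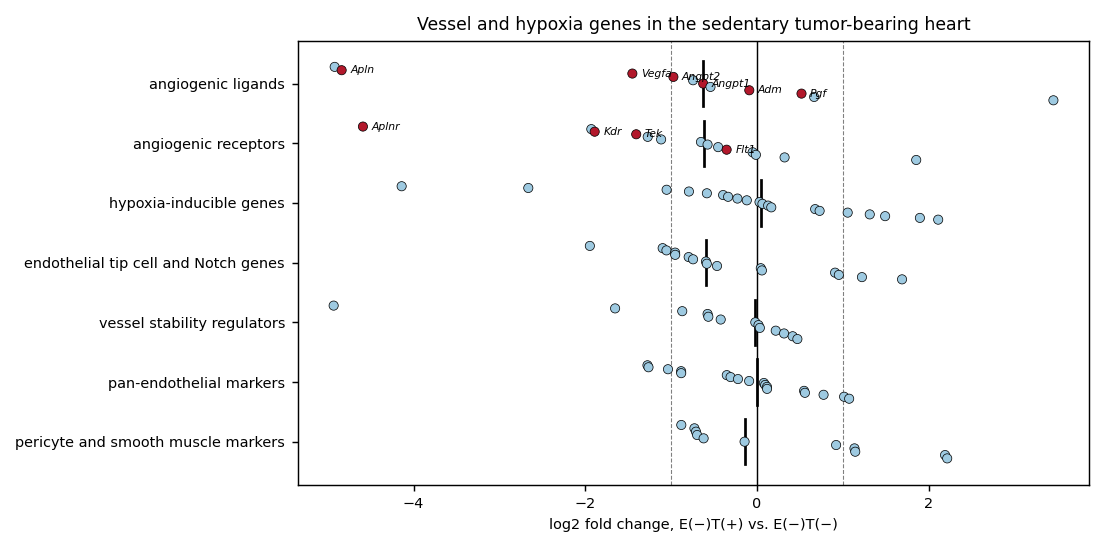
Log2 fold change in the sedentary tumor contrast (horizontal axis) for each gene of 7 lists that passed the count minimum, with red points for the 10 genes of the set, blue points for other genes, black bars for list medians and dashed lines at 2-fold. Apln, Aplnr, Vegfa, Kdr and Tek lie left of every pan-endothelial marker, whose values run from −1.28 to 1.07.

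Endothelial content was examined with 18 pan-endothelial markers. In the sedentary tumor contrast, 3 of the 18 fell and 2 rose, beside 13.1% of all genes examined called lower and 14.6% higher. The median of the markers was −0.01 and their range was −1.28 to 1.07. Apln, Aplnr, Vegfa, Kdr and Tek were lower than each of the 18 in that contrast. These are the genes called lower there, so a low place follows in part from the call rule. The counting interval of Tek (−1.74 to −1.10) reached above the lowest marker, at −1.28. Flt1 and Angpt1 each had 5 of the 18 markers below them. Apln is also made by cardiomyocytes and adipocytes, and Angpt1 by mural cells, so their places do not measure endothelial content. The cells that made Vegfa were not examined. The summed normalized read count of the markers was 11206, 9860, 12010 and 13562 in the 4 libraries, healthy ones first. The sum was carried mainly by Pecam1, Cd34 and Egfl7, the markers with the highest means. The median log2 value of the markers was 8.71, 8.37, 8.39 and 8.80 in the same order, so it did not follow the sum. The 3 that fell were Icam2, Cdh5 and Robo4, and those that rose were Sox17 and Ecscr, named after their values were seen. Pecam1 was at 0.55 there, Cd34 at 0.12 and Egfl7 at 0.78. In bulk tissue, fewer cells of a type and less RNA per cell cannot be told apart.

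Markers of several other cell types moved between the libraries. Over all genes examined, 13.1% were called lower and 14.6% higher in the sedentary tumor contrast. In the tumor-bearing exercise contrast these shares were 10.0% and 9.39%. In the sedentary tumor contrast, 9 of 12 adipocyte markers fell (median −2.33), and 7 of 11 rose in the tumor-bearing exercise contrast (median 2.43). Without a tumor, 8 of 12 also fell in the healthy exercise contrast (median −1.92), beside 6.40% of all genes examined. Summed, the list ran from 48558 to 74622 normalized reads, carried by Lpl and Fabp4, which the heart also expresses. Among defining markers, Adipoq, named after its values were seen, had 317 and 78 reads in the sedentary and exercised healthy hearts, and 76 and 356 in the sedentary and exercised tumor-bearing hearts. Apln, which adipocytes also make, had 151, 146, 6 and 8 reads in that order. Fibroblast markers had 5 of 9 higher in the sedentary tumor contrast (median 1.28), macrophage markers 7 of 10 (median 1.45), neutrophil markers 7 of 8 (median 4.23), lymphatic endothelial markers 4 of 7 (median 1.12) and platelet markers 3 of 7 (median 0.88). Pericyte and smooth muscle markers had 4 of 11 higher and a median of −0.14, with 5 above 0 and 6 below. Those below 0 were Rgs5, Cspg4, Notch3, Abcc9, Kcnj8 and Pdgfrb, from −0.88 to −0.14. Those above 0 were Cnn1, Tagln, Myh11, Des and Acta2, from 0.92 to 2.22. Of these, Rgs5, Des and Acta2 fell under the naming rule, and the others were named after their values were seen. Erythroid markers had 1 of 8 higher in that contrast and 8 of 8 higher in the tumor-bearing exercise contrast (median 3.08). Cardiomyocyte markers had none of 10 called in the sedentary tumor contrast (median −0.06). Of 5 epithelial and carcinoma markers there, Hmga2 was higher, from 5 to 195 reads, and Krt19 lower, both named after their values were seen. Hmga2 had 14 reads in the exercised tumor-bearing heart, and fell by 3.40 in the tumor-bearing exercise contrast. Epcam had 2 to 8 reads in every library. The part of these cell types in the changes of the 10 genes was not tested.

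The genes with the pattern most like those of the 3 widest-ranging members were sought by the Euclidean distance between log2 values centred on each gene's mean, over 4 libraries and 11632 genes with a mean normalized read count of at least 16. Nearest to Apln were Prnd (39, 52, 2 and 4 reads in the same library order), Dbh (83, 109, 6 and 10) and Tbxa2r (28, 35, 2 and 2). Aplnr itself ranked 6 from Apln, at a distance of 0.92. Nearest to Aplnr were Chek2, Kit and Dbh, with Chek2 at 121, 90, 7 and 18 reads. Nearest to Kdr were Itga1 (125, 98, 39 and 47 reads), a collagen-binding integrin subunit, the Wnt co-receptor Lrp5 (86, 72, 31 and 30) and the kinase gene Rps6ka2 (164, 138, 53 and 57). All are high in the healthy libraries and low in the tumor-bearing ones, and with 4 libraries the likeness is a description only.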

How the data were processed

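QuantSeq 3′ mRNA-seq data of 4 groups of mouse hearts were analysed, with 1 library per group. According to the methods and the submitters' processing notes, the authors aligned reads with Bowtie2 to mm10, obtained gene counts from Bedtools coverage and applied quantile normalization with edgeR in R. The values the authors deposited are log2 values of normalized read counts plus a pseudocount of 1, for 23282 genes. The strand setting and the annotation used for counting are not given in the sources used here.

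Whole reads were recovered by fitting library sizes and a common dispersion of 0.149, which gave the deposited values back within 0.000642. Within a tolerance of 0.1 read, 100% of the 25460 values of 5 to 99 reads were whole. The procedure was tested on simulated data. Fold changes are differences of deposited log2 values. Intervals of fold changes (95%) are exact binomial ones, after Clopper and Pearson, for the share of the recovered reads held by the first library, and those of single levels are exact Poisson ones. No group has a second library, so conditions were not tested and p-values are absent. Depth limits Apln and Aplnr, with 3 to 8 reads in the tumor-bearing libraries.

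The 10 genes, the 17 gene lists (196 of 199 symbols measured) and their naming rule were chosen with earlier results of these data known. Besides the 10 genes, the rule named up to 4 genes of each pathway list with the widest range among those with a mean normalized read count of at least 16, the 3 genes nearest to each of the 3 widest-ranging members, and, of marker lists, the summed level and up to 3 genes with the highest mean. Genes named outside it are marked as such. On a duplicate symbol the entry with the highest mean was used. Positions are from GENCODE M21 and promoter windows from RefSeq. Alternatives covered 4 other scalings or depths, the pseudocount, the count minimum and the fold threshold. Tools were matplotlib 3.10.9, numpy 2.4.6, pandas 2.3.3, Python 3.11.15 and scipy 1.17.1.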

Additional observations from a re-analysis of the deposited data

Results flagged for a closer look

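Of the 10 genes, 3 had an exercise contrast that pointed one way without a tumor and the other way with one, with both counting intervals apart from 0. The contrast with a tumor minus that without was 1.07 for Kdr, 0.845 for Angpt1 and 1.26 for Tek, on the log2 scale. The difference was not tested, because each group has 1 library. The median of the pan-endothelial markers also turned, from −0.28 without a tumor to 0.37 with one. For 2 of the 3 genes the turn depends on the scaling. With reads scaled to library totals, the contrast with a tumor was −0.14 for Kdr, −0.06 for Angpt1 and 0.21 for Tek.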

How the results depend on the processing

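Of 200 recomputed changes of the 10 genes, 196 kept their sign, and none of the 4 that changed sign was a called change. Part of this was fixed in advance, since a larger pseudocount cannot change a sign. Scaling by a trimmed mean of log ratios nearly repeats the main scale, with library sizes at most 0.12% apart. The subsampled reads were scaled in that way too. All 4 sign changes arose when the recovered reads were scaled to library totals: −0.14 for Kdr, −0.06 for Angpt1 and −0.37 for Adm in the tumor-bearing exercise contrast, and −0.50 for Angpt1 in the exercised tumor contrast. That scaling moved the median of all genes to −0.59 and −0.72 in these contrasts and to −0.16 in the sedentary tumor contrast. Under it, 0 of the 10 genes were called higher in each of the former contrasts, and 6 were called lower in the exercised tumor contrast (Apln, Aplnr, Vegfa, Kdr, Angpt2 and Adm), beside 35.3% of all genes. That scaling, and one to reads outside globin genes, each called 6 genes lower in the sedentary tumor contrast, with Angpt2 added, beside 17.0% and 16.6% of all genes. In the tumor-bearing exercise contrast, 1 gene, Vegfa, was called higher with a pseudocount of 4, with a count minimum of 16, and with a minimum of 4 in both libraries, where Aplnr drops out for its 3 and 6 reads. With reads subsampled to the smallest library, 3 were called higher there, namely Vegfa, Apln at 1.72 and Pgf at 1.07, and Aplnr, at 0.46, was not. At a threshold of 1.5-fold, 6 genes were higher in that contrast (Apln, Aplnr, Vegfa, Pgf, Angpt2 and Tek), beside 17.5% of all genes, and 2 were lower in the healthy exercise contrast (Aplnr and Kdr), beside 13.0%. No paired analysis was possible because each group has 1 library, and for the same reason no replicate could be left out.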
